A study of Saccharomyces cerevisiae with 4 samples.

Results

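Amino acid biosynthesis genes of the budding yeast Saccharomyces cerevisiae were followed among RNA co-immunoprecipitated with zzMex67, a tagged form of the mRNA export receptor Mex67, against total RNA. The members were the genes whose symbol stood on a list of pathway enzymes and their activator GCN4, by name alone, and the list was drawn up with earlier results of these data known. They numbered 73 of the 5539 genes with a named probe, with 2 probes each on the array. Each of 4 two-colour DNA arrays carried the zzMex67 co-IPed RNA in one channel and the total RNA in the other, so that each spot gave 1 ratio. Arrays 1 and 2 had the co-IPed RNA in channel 2, and arrays 3 and 4 had it in channel 1. All 4 arrays formed 1 group, a precipitation from untagged cells was not analysed here, and the sources used here give no strain, medium or growth stage. Whether separate cultures stand behind the arrays is not in the labels, and a p-value covers the variation among these 4 arrays alone, which can be technical.

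Yeast makes most of its amino acids from intermediates of glycolysis, the citric acid cycle and the pentose phosphate pathway, with nitrogen supplied through glutamate and glutamine. Many of the enzymes share the transcription factor Gcn4, whose own mRNA is translated more when amino acids are scarce. Mex67, in a dimer with Mtr2, carries mRNA through the nuclear pores.

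Values below are log2 ratios, likely co-IPed over total RNA, minus the median of the array over the 596 features (named genes, and unnamed probes taken singly) that had a ratio on at least 3 arrays. The labels speak of a level of Mex67 binding without saying which RNA is on top of the ratio. If the ratio ran the other way, every direction below would turn. If arrays 3 and 4 ran against arrays 1 and 2, no gene described here would be called. A value of 0 is thus a typical measured transcript, not equal recovery. Arrays 2, 3 and 4 were correlated over the tested features (Pearson's r from 0.781 to 0.892 across features, which are not independent replicates). Array 1 stood apart, at r from 0.059 to 0.246 with the others, over 90 to 108 features. Ratios were few on every array, on 6.60% to 19.3% of 12800 probes. On array 1, 81.2% of the deposited ratios equalled a ratio of 2 whole numbers with a denominator of up to 500 (within 2e-09 on the log10 scale), against 22.0%, 19.6% and 15.1% on arrays 2, 3 and 4.

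Amino acid synthesis genes had ratios slightly more often than other genes on every array. On arrays 1 to 4, 9, 23, 11 and 13 of the 73 members had one (12.3%, 31.5%, 15.1% and 17.8%), beside 8.45%, 25.7%, 10% and 11.8% of all 5539 genes. At least 1 ratio was found for 27 members (37.0%, beside 31.6% of all genes), and 10 members (13.7%, beside 8.99%) had the 3 ratios needed for the test. The sources used here do not say why a spot has no ratio, so these shares describe the deposit and were not tested.

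In the test of the mean against the array median, the leucine gene LEU2, the tryptophan gene TRP2 and the proline gene PRO3 had ratios below those of a typical measured transcript, and no amino acid synthesis gene was called above it. Without centring, none of them was called (LEU2: limma, adjusted p = 0.574), and on array 2 their ratios before centring were positive, at log2 0.73, 0.39 and 1.38. Of the 10 members tested, 3 were called below the median, as were 24.8% of all 596 features. Above it 0 were called, beside 21.3% of all features. A call means an adjusted p under 0.05 (limma's moderated test, two-sided, Benjamini-Hochberg over all 596 features). At an unadjusted p under 0.05, 4 members lay below and 2 above, where 28% and 27% of all features did. The share called below is close to the background. Their 10 means had a median of -0.49, beside -0.00 for all features, and a median size of 0.78, beside 0.94. Means were negative for 6 members and positive for 4. Calls above depended on the fit. Without array 1, 2 members, ARO7 and TRP5, were called above the median and 4 below, where 27.9% and 29.5% of the same features were. ARO7 had no ratio on array 1, and its mean was 0.85 in both fits. With array 1 kept, TRP5 was also called above when arrays were centred on all probes with a ratio (mean 1.58; limma, adjusted p = 0.012). Centring was also done within blocks of 400 consecutive probes, which stand near each other in the probe numbering. Each block median rested only on the probes of the block that had a ratio. For PRO3 these numbered 321, 125 and 174 on arrays 2, 3 and 4. For LEU2 they numbered 47, 25 and 24, and for LYS20 58, 35 and 36. On array 1 they numbered 5 for TRP5 and 8 for HIS3. With block centring 0 members were called above and 3 below, beside 18% and 16.6% of the features (limma; 1 member above at an unadjusted p under 0.05).

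**Figure D1:**
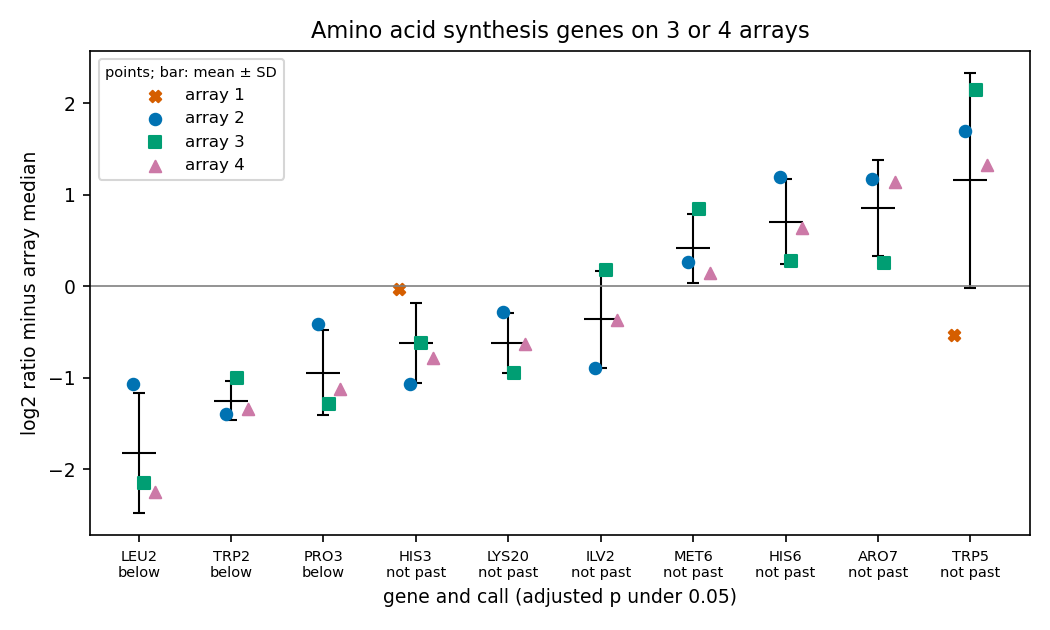
Log2 ratio minus the array median (vertical axis) of the 10 amino acid synthesis genes with a ratio on 3 or 4 arrays, ordered by mean; points are arrays, the long bar is the mean and the whiskers are 1 SD. LEU2, TRP2 and PRO3 lie below 0 on each array that measured them, and the array 1 point of TRP5 lies apart from its other points.

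The branched-chain pathway held the gene with the lowest mean of the 10 tested. LEU2 codes for beta-isopropylmalate dehydrogenase, which acts late in leucine synthesis, and had values of -1.07, -2.15 and -2.26 on arrays 2, 3 and 4. All 3 lay below the median, array 2 less far than the other two. The mean of -1.82 ± 0.66 (SD, n = 3) put it 3.54-fold below the median (95% interval of the log2 mean -2.69 to -0.95; limma, adjusted p = 0.0127). Its 2 probes were alike, at -1.27 and -0.86 on array 2, -2.01 and -2.29 on array 3, and -1.97 and -2.54 on array 4. With array 3 or array 4 left out the mean was -1.66 or -1.61 and the call ended (limma, adjusted p = 0.0544 and 0.0585).

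ILV2, the catalytic subunit of acetolactate synthase, which begins the common part of isoleucine and valine synthesis, had -0.89, 0.17 and -0.37 on arrays 2, 3 and 4. These straddled the median, and the mean of -0.36 ± 0.53 (SD, n = 3) was not called (limma, adjusted p = 0.357). It was -0.10 without array 2 and -0.63 without array 3. On array 2 the block of 400 consecutive probes around ILV2 itself had a median of -0.86 on this scale, and relative to its block ILV2 had a mean of -0.10 ± 0.20 (SD, n = 3).

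The remaining branched-chain members had 1 or 2 ratios and were not tested. ILV5, the acetohydroxyacid reductoisomerase, stood at 0.07 on array 2 and -0.95 on array 4. LEU4, the main alpha-isopropylmalate synthase and so the entry to leucine synthesis, stood at 0.02, and the threonine deaminase ILV1 at -0.63, both on array 2 only. Of the 2 branched-chain genes tested LEU2 alone was called, and LEU1, LEU9, ILV3, ILV6, BAT1 and BAT2 had no ratio.

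Genes of aromatic amino acid synthesis stood on both sides of the median. TRP2, the anthranilate synthase subunit that commits chorismate to tryptophan, had -1.40, -1.005 and -1.35 on arrays 2, 3 and 4. The spread between arrays was the smallest of the 10 members. The mean of -1.25 ± 0.22 (SD, n = 3) lay 2.38-fold below the median (95% interval -1.86 to -0.64; limma, adjusted p = 0.0134). Its 2 probes differed by at most 0.17 on any array. The call of TRP2 ended without array 4 (mean -1.20; limma, adjusted p = 0.0954) and when arrays sharing a code in their titles (1 and 3, 2 and 4) were averaged (mean -1.19; limma, adjusted p = 0.0543). Without array 2 or array 3 it held over the same features (limma, adjusted p = 0.0483 and 0.0437). It ended there too with features on at least 2 of the other arrays (means -1.15 and -1.22; limma, adjusted p = 0.0556 and 0.0997).

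TRP5, the tryptophan synthase of the last step of the same branch, had the highest mean of the members and was not called. It stood at -0.54, 1.69, 2.15 and 1.32 on arrays 1 to 4. The first of these lay below the median and the other three well above it. The mean was 1.16 ± 1.18 (SD, n = 4; limma, adjusted p = 0.0886), and without array 1 it was 1.72 and called above (limma, adjusted p = 0.00302). The array 1 value came from the higher-numbered probe alone, which also gave the lower ratio on each other array: 0.27, 1.93 and 0.87 on arrays 2, 3 and 4, against 3.12, 2.37 and 1.78 for the lower-numbered probe. Tested by itself, the lower-numbered probe had a mean of 2.30 over arrays 2 to 4 after the arrays were centred on single probes (limma, adjusted p = 0.00826). In the same fit the higher-numbered probe had a mean of 0.47 and was not called (limma, adjusted p = 0.411).

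ARO7, the chorismate mutase that opens the branch to phenylalanine and tyrosine, had 1.17, 0.25 and 1.14 on arrays 2, 3 and 4. Each value was above the median, array 3 least. The mean of 0.85 ± 0.52 (SD, n = 3) did not pass (limma, adjusted p = 0.0711), and it passed when array 1, which held no ratio for it, was left out of the fit (limma, adjusted p = 0.0423). TRP2 and ARO7, whose enzymes both use chorismate, lay in the same block of 400 probes, with block medians between -0.30 and -0.02 relative to the array medians of arrays 2 to 4.

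Of the other aromatic genes, TRP4, the anthranilate phosphoribosyltransferase that acts next after TRP2, had 0.12 on array 1 and -1.45 on array 2. ARO3, a DAHP synthase at the entry to the shared pathway, had 0.35 on array 1 and -0.46 on array 2. For both genes the ratio on array 1 came from one probe and that on array 2 from the other. ARO4, the paralogue of ARO3, had no ratio, nor did ARO1, ARO2, ARO8, TRP1 and TRP3.

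**Figure D2:**
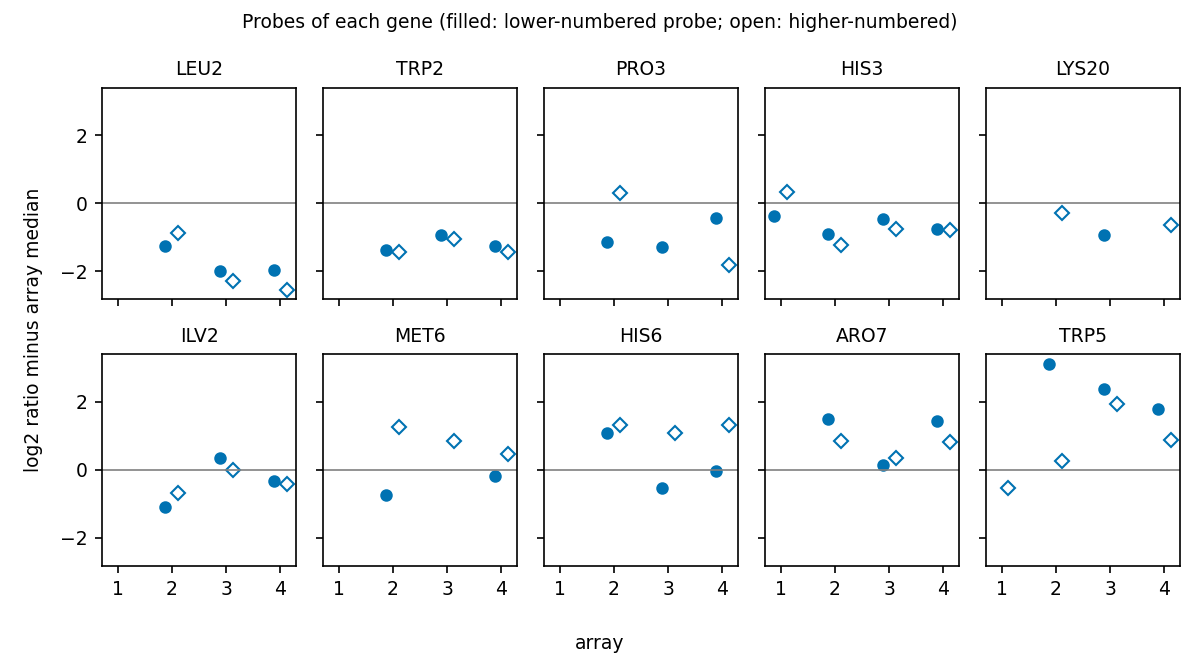
Log2 ratio minus the array median (vertical axis) of each probe on arrays 1 to 4 (horizontal axis) for the 10 tested genes, with the lower-numbered probe filled and the higher-numbered probe open. The probes of TRP2 and LEU2 lie close together, and those of TRP5 differ by 2.84 on array 2.

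PRO3, the pyrroline carboxylate reductase that completes proline synthesis, had -0.41, -1.29 and -1.13 on arrays 2, 3 and 4. All 3 were below the median. The mean of -0.94 ± 0.47 (SD, n = 3) lay 1.92-fold below it, at the edge of the threshold (95% interval -1.68 to -0.21; limma, adjusted p = 0.0490). Its probes did not agree on array 2, at -1.13 and 0.31, nor on array 4, at -0.45 and -1.81, and array 3 had only the lower-numbered one. The block that holds PRO3 had medians of -0.82 and -0.75 on arrays 3 and 4, and centred within blocks the mean of PRO3 was -0.37 ± 0.10 (SD, n = 3; limma, adjusted p = 0.255). The call also ended without array 3 or array 4 (means -0.77 and -0.85; limma, adjusted p = 0.189 and 0.230), as it did when the title code was a random block (adjusted p = 0.0558) and when codes were averaged (adjusted p = 0.0784). PRO1 and PRO2 had no ratio.

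The 2 histidine genes with ratios lay on opposite sides of the median and neither was called. HIS3, the imidazoleglycerol-phosphate dehydratase, had -0.03, -1.07, -0.62 and -0.79 on arrays 1 to 4. Array 1 was nearest the median. The mean was -0.62 ± 0.44 (SD, n = 4; limma, adjusted p = 0.0751), and without array 1 it was -0.82 and passed (limma, adjusted p = 0.0233), though not when features on only 2 of the other arrays were added (mean -0.70; limma, adjusted p = 0.0792).

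HIS6, an isomerase of the middle of the pathway, had 1.20, 0.28 and 0.64 on arrays 2, 3 and 4. The mean of 0.71 ± 0.46 (SD, n = 3) did not pass (limma, adjusted p = 0.0989) and was 0.46 without array 2. Its probes gave different answers: the higher-numbered one stood at 1.33, 1.09 and 1.33 on arrays 2 to 4, and the lower-numbered one at 1.07, -0.53 and -0.04. Tested alone, the higher-numbered probe was called above (mean 1.13 after the arrays were centred on single probes; limma, adjusted p = 0.0152). In the same fit the lower-numbered probe had a mean of 0.04 and was not called (limma, adjusted p = 0.928). HIS1, HIS2, HIS4, HIS5 and HIS7 had no ratio.

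For lysine, LYS20, a homocitrate synthase at the entry to the pathway, had -0.28, -0.95 and -0.63 on arrays 2, 3 and 4. The mean of -0.62 ± 0.33 (SD, n = 3) did not pass (limma, adjusted p = 0.106), and it was -0.46 without array 3, or -0.30 with features on at least 2 of the other arrays. LYS20 lay in a block whose medians were 0.59, 0.91 and 0.81 above those of the same arrays. Centred within blocks it had -0.87, -1.86 and -1.44, a mean of -1.39 ± 0.50 (SD, n = 3), and was called below (limma, adjusted p = 0.0251). The array 3 value came from one probe and those of arrays 2 and 4 from the other. LYS4, the homoaconitase, had -1.18 on array 2 only. LYS21, the closely similar paralogue of LYS20, had no ratio, so signal shared between these genes could not be examined, and LYS1, LYS2, LYS9 and LYS12 had none either.

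Among the sulfur genes MET6, the methionine synthase, was the only one tested. It had 0.26, 0.85 and 0.15 on arrays 2, 3 and 4, with a mean of 0.42 ± 0.38 (SD, n = 3) that did not pass (limma, adjusted p = 0.246) and was 0.20 without array 3. On array 2 its probes stood 2.00 apart, at -0.74 and 1.26.

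Genes of sulfate assimilation had fewer ratios. MET16, the reductase of activated sulfate, had the lowest values of the sulfur genes, -2.72 on array 1 and -1.76 on array 2. It was called below in a fit that took features on at least 2 arrays (mean -1.91 ± 0.36, SD, n = 2, on the medians of that fit; limma, adjusted p = 0.0363), where 12.8% of all 938 features were. Both values came from 1 probe and 1 channel assignment, and arrays 1 and 2 had a Pearson's r of 0.059. The call ended when array 3 or array 4, neither of which measured it, was left out of that fit (means -1.88 and -1.89; limma, adjusted p = 0.0574 and 0.0677). MET3, the ATP sulfurylase of the first step, had 1.42 on array 2 and -0.82 on array 3. MET16 was thus low on both arrays that measured it, whereas MET3 lay on opposite sides of the median.

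MET10, a subunit of sulfite reductase, had -1.33 and the homoserine acetyltransferase MET2 had 0.39, both on array 1 only. MET13, MET14, MET17, MET22, CYS3 and CYS4 had no ratio.

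Nitrogen assimilation, serine and arginine genes had 1 or 2 ratios each. GDH3, an NADP-dependent glutamate dehydrogenase, had -3.22 on array 2, where 1.85% of the tested features on that array were lower, and the lowest value of any member. It rested on 1 probe and 1 array, and its paralogue GDH1 had no ratio. GDH2, the NAD-dependent enzyme that breaks glutamate down, had 0.25 on array 1, from probes at -0.34 and 0.83. SER2, the phosphoserine phosphatase, and SER3, a phosphoglycerate dehydrogenase, had -1.92 and -1.36 on array 2.

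ARG8, the acetylornithine aminotransferase, had -0.47 on array 2 and -1.64 on array 4, and CPA1, the small subunit of carbamoyl phosphate synthetase, -1.50 on array 1. GLN1, GLT1, SER1, SHM1, SHM2, ARG1, ARG3 and ARG4 had no ratio. All 7 members of the aspartate family (HOM2, HOM3, HOM6, THR1, THR4, ASN1 and ASN2) also lacked one.

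GCN4, the activator of many of these genes, had -1.90 on array 2 and -1.46 on array 4. Both probes lay below the median on both arrays, between -2.51 and -1.21. The medians of its block were -0.78 and -0.93 on these arrays. With 2 ratios it was outside the test. In fits that admitted it GCN4 had a mean of -1.53 ± 0.39 (SD, n = 2; limma, adjusted p = 0.0580) with features on at least 2 arrays, and -1.56 ± 0.42 (SD, n = 2; limma, adjusted p = 0.0124) when array 1 was left out as well. With array 3 left out instead, the mean was -1.52 ± 0.37 (SD, n = 2; limma, adjusted p = 0.0742). Neither array 1 nor array 3 measured GCN4, so its call depended on which other values entered the fit.

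**Figure D3:**
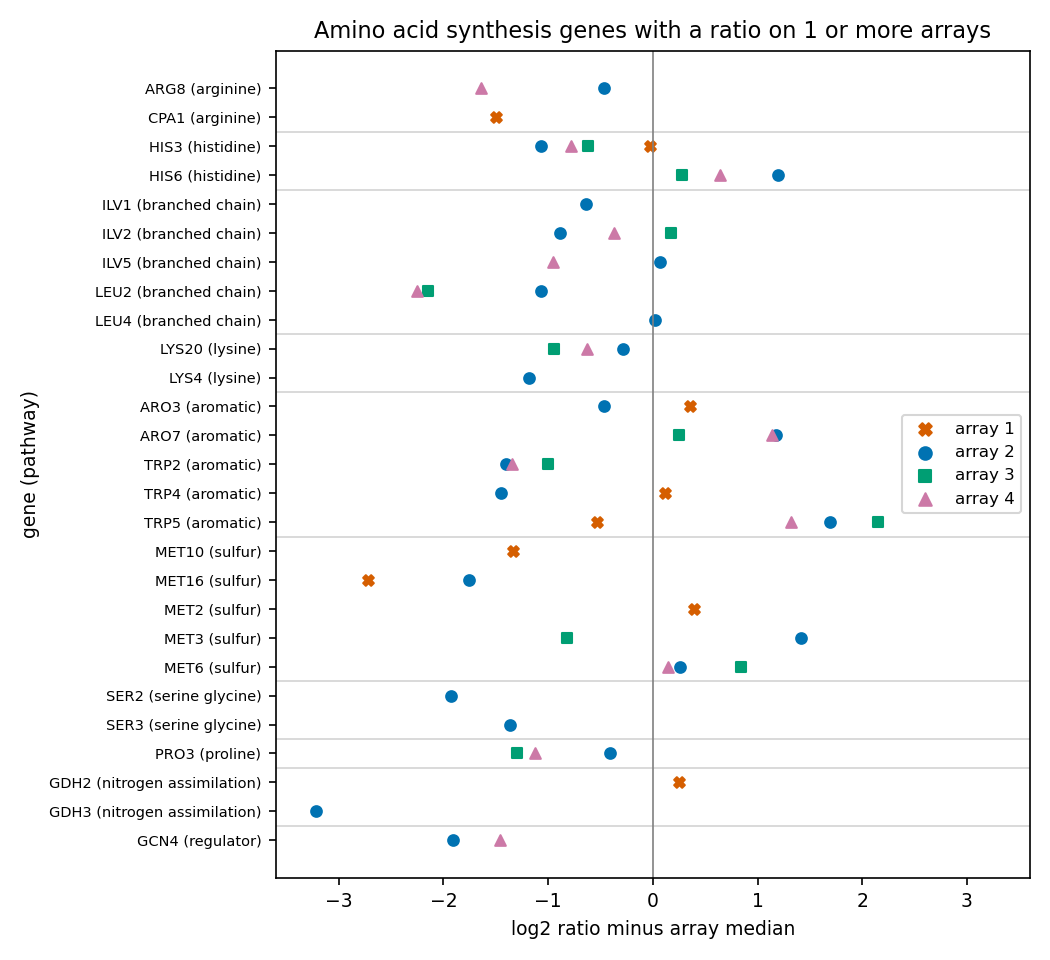
Log2 ratio minus the array median (horizontal axis) of the 27 amino acid synthesis genes with a ratio on at least 1 array, grouped by pathway from top to bottom; each point is 1 array. On array 2 most points, 16 of 23, lie left of 0.

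Over all members with a ratio, more lay below the array median than above it, and so did all genes. On array 2, 16 of 23 members (69.6%) were below, beside 61.4% of 1424 genes. On array 4, 9 of 13 (69.2%) were below, beside 55.8% of 652 genes, and on array 3, 6 of 11 (54.5%), beside 51.6% of 556. On array 1, 5 of 9 members (55.6%) were below, beside 75.2% of 468 genes. Over all genes, those with too few ratios for the test had medians of -1.45, -0.41, -0.49 and -0.59 on arrays 1 to 4. These lay below the tested features, whose median was set to 0. Untested members with a ratio were few, at 7, 13, 1 and 3 on arrays 1 to 4. Their medians were 0.12, -1.18, -0.82 and -1.46, the third of these a single gene. Tested members had medians of -0.28, -0.35, -0.22 and -0.50, from 2 genes on array 1 and 10 on each other array. The side of an untested member thus depends on which features set the median.

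How well the members' own probes agreed bears on each of these values. For the 32 pairs of probes of 1 member measured on 1 array, the median gap was 0.47, and the largest was 2.84, for TRP5 on array 2. Over all genes the median gap was 0.45 in 1627 pairs. The gaps were thus of the same order as the spread between arrays, whose median SD was 0.47 for the members and 0.49 for all features.

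**Figure D4:**
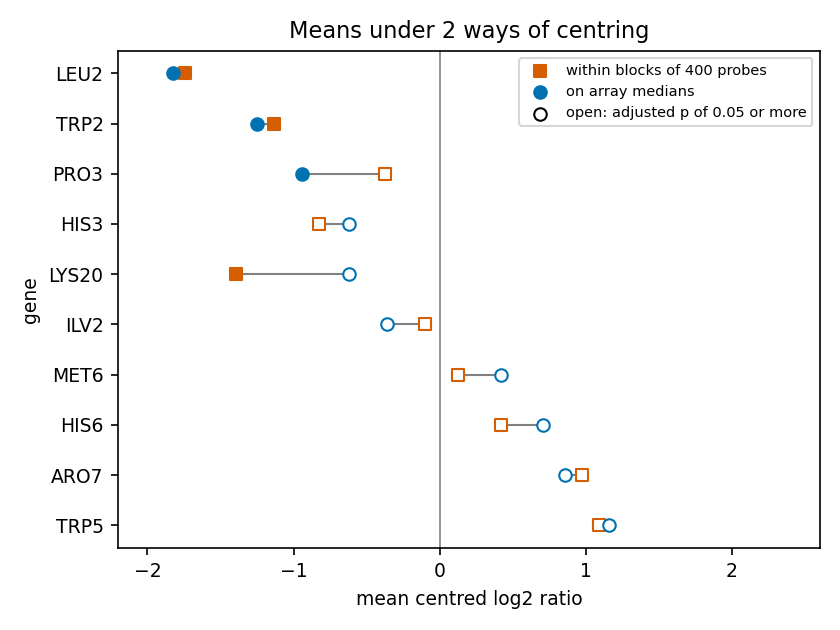
Mean log2 ratio (horizontal axis) of the 10 tested genes (vertical axis) centred within blocks of 400 consecutive probes (orange squares) and on array medians (blue circles), with filled symbols for calls at an adjusted p under 0.05. LEU2 and TRP2 stay below 0 with a call, PRO3 loses its call and LYS20 gains one.

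Genes related to the pathways, from 3 lists beside the members, gave calls in both directions. Of 31 other synthesis enzymes with a probe, 1 was tested: MET1, a methyltransferase that makes siroheme for sulfite reductase, had 0.03, -0.67 and 0.11 on arrays 2 to 4, a mean of -0.18 ± 0.43 (SD, n = 3; limma, adjusted p = 0.622). Of 29 regulators with a probe, 4 were tested. Of these, 2 were called above the median and 0 below, where 21.3% and 24.8% of all features were. ARG81, a regulator of arginine-responsive genes, had 0.48, 1.23 and 1.60 on arrays 2 to 4 (mean 1.10 ± 0.57, SD, n = 3; limma, adjusted p = 0.0412), and GCD6, the catalytic subunit of the factor eIF2B, through which GCN4 translation is controlled, had 0.60, 2.40 and 1.80 (mean 1.60 ± 0.92, SD, n = 3; limma, adjusted p = 0.0337). Both calls ended without array 3 or array 4 (adjusted p = 0.139 and 0.222 for ARG81, 0.111 and 0.100 for GCD6). GCD7, another subunit of eIF2B, at -0.62 ± 0.26 (SD, n = 3), and ASC1, a ribosomal scaffold protein, at 0.09 ± 0.29 (SD, n = 4), did not pass (limma, adjusted p = 0.0940 and 0.735). The call of ARG81 ended also within blocks of probes, at a mean of 0.76 (limma, adjusted p = 0.0779), and with the arrays of a title code averaged (adjusted p = 0.0550).

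Of 27 genes of amino acid breakdown and use with a probe, 6 were tested, of which 2 were called above and 3 below, beside the same 21.3% and 24.8%. Of the 3 called below, 2 are near-identical copies of 1 gene. CHA1, the deaminase that degrades serine and threonine, had 2.82, 0.89 and 2.80 on arrays 2 to 4, a mean of 2.17 ± 1.11 (SD, n = 3; limma, adjusted p = 0.0208). Without array 2 or array 4 its call ended (means 1.85 and 1.86; limma, adjusted p = 0.0764 and 0.0631), as it did with the arrays of a title code averaged (adjusted p = 0.0778). PDC6, a minor pyruvate decarboxylase, had 1.48, 2.85 and 1.66 and a mean of 2.00 ± 0.75 (SD, n = 3; limma, adjusted p = 0.0124), and within blocks of probes the mean was 0.38 and the call ended (limma, adjusted p = 0.543). ECM38, the gamma-glutamyltransferase of glutathione breakdown, stood below the median, at -2.41, -0.62, -0.79 and -1.19 on arrays 1 to 4 (mean -1.25 ± 0.81, SD, n = 4; limma, adjusted p = 0.0305). Its call ended without array 3 or array 4 (limma, adjusted p = 0.0534 and 0.0762) with codes averaged (adjusted p = 0.0612) and within blocks of probes, where the mean was -0.65 (limma, adjusted p = 0.0602). Without array 1, its lowest value, ECM38 had a mean of -0.87 and kept its call (limma, adjusted p = 0.0227), but with features on at least 2 of the other arrays the mean was -0.75 and the call ended (adjusted p = 0.0628).

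The near-identical asparaginase gene copies ASP3-1 to ASP3-4 had separate probes and different values. ASP3-1 had -3.30, -2.19, -1.40 and -1.76 on arrays 1 to 4, a mean of -2.16 ± 0.82 (SD, n = 4; limma, adjusted p = 0.00604), and ASP3-4 had -1.47, -1.08 and -1.32 on arrays 2 to 4, a mean of -1.29 ± 0.20 (SD, n = 3; limma, adjusted p = 0.0124; 0.0821 without array 4). ASP3-2 had -0.05, -0.41 and -1.09, a mean of -0.52 ± 0.53 (SD, n = 3), and did not pass (limma, adjusted p = 0.211), while ASP3-3 had 0.52 on array 2 and 0.08 on array 4. Signal of such copies cannot be assigned to 1 gene. The 4 copies thus ran from -2.19 to 0.52 on array 2 and from -1.76 to 0.08 on array 4.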

How the data were processed

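The deposited table held 1 value per probe for each of 4 arrays. The deposited values are log10 ratios: many match a ratio of whole numbers when read as log10, and almost none when read as log2 or natural logs. No source used here describes the authors' background correction, normalization or rule for missing values, and array medians (-1.12 to 0.462, log10) differed from 0. Gene names came from the platform annotation held by GEO, whose symbols can be out of date. All 146 member probes matched a current RefSeq symbol by identifier. Ratios were converted to log2, averaged over a gene's probes (2 repeated rows were averaged first), kept where at least 3 of 4 arrays had one (498 genes and 98 unnamed probes) and centred on each array's median over these. The mean was tested against 0 in R 4.3.3 by limma 3.58.1 (lmFit, then eBayes), Benjamini-Hochberg adjusted over all 596 features. Channel assignments were balanced only for the 80 features on all 4 arrays. For the others, among them the 486 without array 1, a dye effect did not cancel. The fit was also run on simulated ratios with independent noise of a common SD. These lack the low correlation of array 1 with the others, so they cannot show whether the calls here are sound. Python 3.11.15, pandas 2.3.3 and numpy 2.4.6 prepared the values, with matplotlib 3.10.9 for figures and statmod 1.5.0 for the random block. Signal over background was not used here, and the number of arrays limits precision. Title codes (A for arrays 1 and 3, B for arrays 2 and 4) served as a batch alternative. Other alternatives changed centring, scaling, the limit on missing values, probes, variance model, thresholds, direction and arrays left out. Every member with a ratio, every called gene of the 3 related lists and MET1 were to be named; GCD7, ASC1, ASP3-2 and ASP3-3 were added after their values were seen. Members and lists were chosen with earlier results of these data known. No probe sequences were used.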

Additional observations from a re-analysis of the deposited data

How the results depend on the processing

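No paired analysis was possible because all arrays form 1 group, numbered in accession order. Counts of genes above and below here are of calls, unless an unadjusted p is given. Each share in brackets is that of all features called in the same direction and fit. With 1 array left out, 0 to 2 amino acid synthesis genes were called above the median and 0 to 4 below. Related genes called numbered 0 to 4 above and 1 to 3 below. Over these fits 5.05% to 27.9% of all features were called above and 3.29% to 29.5% below. Without array 4, 0 members were called below in both fits (13.6% and 3.66%; 2 at an unadjusted p under 0.05 in each, limma). Without array 3, 1 (TRP2) or 0 were (15.8% and 3.29%; limma, 4 at an unadjusted p under 0.05 in the fit with 0). These counts are thus few where few features were called at all. Members above numbered 1 when arrays were centred on all probes with a ratio (24.3%) and 1 with the first probe of a gene (23.9%). With each probe tested on its own they numbered 2 (23.6% of 822 probes). A gene counted there if either of its probes was called, so count and share differ in unit. Members below numbered 0 without centring (0%), with features on all 4 arrays (8.75%), which leaves 2 members, with arrays 3 and 4 turned (0%), and at an adjusted p under 0.01 (11.1%; limma, in turn 0, 1, 0 and 4 at an unadjusted p under 0.05), and 1 with the arrays of a title code averaged (18.3%). Related genes above numbered 2 within blocks (18%), with codes averaged (15.6%) and with first probes (23.9%), and 0 without centring (0%), on all 4 arrays (11.2%), with arrays turned (0%) and at the stricter threshold (11.1%; limma, in turn 0, 0, 0 and 4 at an unadjusted p under 0.05). Related genes below numbered 0 without centring and with arrays turned (0% in both; limma, 1 and 0 at an unadjusted p under 0.05), and 1 on all 4 arrays (8.75%) and at the stricter threshold (11.1%). Scaling, quantile normalization, a channel term, the random block and the other variance models gave 2 or 3 members below (23.8% to 25.5%) and 0 above (20.3% to 22.7%).

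Without centring the mean turned to -0.33 for ARO7, -0.48 for HIS6, -0.77 for MET6, -0.20 for TRP5, -0.08 for ARG81 and -1.27 for ASC1, because the array medians themselves differ from 0. With arrays 3 and 4 turned, the means were -0.07 for ARO7, 0.08 for HIS3, 1.11 for LEU2, 0.43 for LYS20, -0.24 for MET6, 0.67 for PRO3, 0.32 for TRP2 and -0.58 for TRP5, with -0.78 for ARG81, -0.19 for ASC1, 0.48 for ASP3-2, 0.31 for ASP3-4, -0.29 for CHA1, -1.20 for GCD6, 0.31 for GCD7, 0.19 for MET1 and -1.01 for PDC6. MET1, uncalled, had 0.40 within blocks, and 0.23 or 0.07 without array 3. ASC1, uncalled at 0.09, had -0.12 and -0.04 for its single probes, -0.11 for its first and -0.03 without array 3. The call ended in 6 of 26 alternative values for LEU2, 7 of 26 for TRP2 and 17 of 25 for PRO3, beside the turned arrays that reversed each. The cause of the other changes was not tested. Signal over background, which limits faint spots, was not used here.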
